A study of Mus musculus with 6 samples.

Results

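The genes described here are 10 components of the Nrf2 antioxidant and glutathione system, followed through intestinal tumor organoids of 3 Trp53 genotypes. They were chosen by gene symbol, as Nrf2 (Nfe2l2), its repressor Keap1, and 8 genes for cystine uptake, glutathione synthesis and the reduction or breakdown of oxidised molecules (Slc7a11, Gclc, Gclm, Gsr, Txnrd1, Srxn1, Nqo1, Hmox1). Each symbol matched 1 of the 36172 gene entries of the expression table, and all 10 passed the filter of at least 4 rpkm in at least 1 library, which kept 10042 entries. Rpkm is the number of reads per transcript length and sequencing depth.

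Nrf2 is a transcription factor that Keap1 holds for degradation in unstressed cells. When oxidants or electrophiles modify Keap1, Nrf2 escapes, pairs with a small Maf protein and binds antioxidant response elements near genes for glutathione synthesis, thioredoxin reduction and detoxification. Glutathione is built from cysteine, much of which enters cells as cystine through the transporter encoded by Slc7a11, a gene that Nrf2 and the amino acid stress factor Atf4 both induce and that wild-type p53 has been reported to repress.

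RNA sequencing had been done on organoids, cultures of tumor epithelium grown as small hollow bodies, from small intestinal tumors of C57BL/6 mice aged 15 to 20 weeks. All mice carried the Apc Δ716 truncation, and the tumor cells had lost the other Apc allele. The groups were Trp53+/+ (wild-type p53, labelled p53(+/+)), Trp53flox/flox (both alleles blocked by a stop cassette and functionally null, labelled p53(flox/flox)) and Trp53R270H/R270H (the cassette removed by villin-CreER, a tamoxifen-activated recombinase of the intestinal epithelium, so that mutant p53 R270H is made, labelled p53(M/M)). Each genotype had 2 libraries, from organoids prepared independently from 2 mice. The flox/flox name is the one used in the study for such mice before tamoxifen treatment, and whether Trp53+/+ mice received tamoxifen is not given in the sources used here.

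The genotype check was clear in the libraries. Trp53 was 75.9 and 74.3 rpkm in Trp53+/+, 1.73 and 2.48 rpkm in Trp53flox/flox, and 72.8 and 82.7 rpkm in Trp53R270H/R270H organoids, and Cdkn1a, the p53 target that encodes p21, was 110 and 122, 11.8 and 27.0, and 31.9 and 29.5 rpkm. All 6 epithelial markers were expressed, with summed levels of 1921 to 3322 rpkm, whereas fibroblast and tuft cell markers were at or near the floor of 1 rpkm below which the table gives no value. Among 5 immune and 3 endothelial markers, 1 each rose above the floor (Cd68 and Cdh5), with sums over the whole list, floor values included, of 6.06 to 15.1 and 3 to 11.4 rpkm. Cdh5 was 8.88 and 9.35, 1 and 3.30, and 1.04 and 1 rpkm in the same order of genotypes. It was called lower than in Trp53+/+ in null and mutant (limma adjusted p = 0.0411 and 0.0224). Cd68 was 10.2 and 9.87, 2.06 and 11.1, and 2.22 and 2.41 rpkm, and neither difference from Trp53+/+ was called (limma adjusted p = 0.357 and 0.13). A rough estimate from the smallest steps of short RNA genes put the depth at 44.2 to 52.2 M reads in 5 libraries, while the first Trp53flox/flox library had too few such genes. At that depth, the least covered of the 10 genes in those 5 libraries would have about 339 reads, and counting error would be at most about 5.43%. The short genes were selected with an assumed depth inside that range, so the estimate is not independent of that choice. The Trp53flox/flox libraries differed more from each other than the others did: the median SD of log2 values over all genes tested was 0.25 there, 0.05 in Trp53+/+ and 0.06 in Trp53R270H/R270H organoids.

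The DNA letters in front of the genes were read from RefSeq promoter windows of GRCm38, each reaching from 250 bases before to 50 bases after a transcription start. Windows matched 7 of the 10 genes, 9 windows in all, since Txnrd1 has 3 starts. Searched on both strands were the core of the antioxidant response element (TGACNNNGC), the AP-1 site (TGANTCA), which can overlap that core, and the element bound by Atf4 with C/EBP partners (TGATGNAA). These occurred in 12.4%, 7.81% and 3.97% of all 32851 windows. The stretches below are shown because they hold a match upstream of the start, which is in capitals, in the direction of the gene.
Slc7a11 (chr3:50443633-50443699, minus strand, both Atf4 elements): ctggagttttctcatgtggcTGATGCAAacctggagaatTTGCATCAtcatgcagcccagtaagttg
Nfe2l2 (chr2:75704875-75704913, minus strand, antioxidant response element core): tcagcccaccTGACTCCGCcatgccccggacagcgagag
Gclm (chr3:122245403-122245451, plus strand, the core on the opposite strand): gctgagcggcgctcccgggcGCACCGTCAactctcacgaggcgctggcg
Txnrd1 (chr10:82859094-82859142, plus strand, the core on the opposite strand): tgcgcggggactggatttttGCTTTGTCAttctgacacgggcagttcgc
Srxn1 (chr2:152105459-152105505, plus strand, AP-1): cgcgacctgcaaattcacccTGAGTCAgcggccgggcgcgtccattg
Srxn1 (chr2:152105402-152105448, plus strand, AP-1): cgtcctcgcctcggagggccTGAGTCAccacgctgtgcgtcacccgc

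In the Slc7a11 stretch, the elements lie 66 to 59 and 47 to 40 bases before the start, and the second runs on the opposite strand. In GENCODE M21, the Nfe2l2 stretch overlaps an exon of E030042O20Rik, a noncoding gene on the plus strand, and the Txnrd1 stretch is intronic to longer Txnrd1 transcripts. Srxn1 also held 1 antioxidant response element core after its start. Windows of Keap1, Nqo1 and the other Txnrd1 starts held none of the 3 motifs. DNA outside the windows was not searched, so a missing match does not show that a gene lacks the element. A match of letters is a description of the window and does not show that a factor was bound there in these organoids.

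The first comparison asked how these genes differ between organoids with mutant p53 R270H and those with wild-type p53. All 10 genes were lower in both Trp53R270H/R270H libraries than in both Trp53+/+ libraries. The limma test called 3 of them lower and none higher: Slc7a11 was 4.52-fold lower, Nqo1 2.99-fold lower and Nfe2l2 2.97-fold lower. Across all genes tested, 37.6% had both mutant libraries below both wild-type libraries, 6.36% were called lower and 5.86% higher at an adjusted p under 0.05. The median log2 difference of the 10 genes was -0.56, and that of all genes tested was 0.03. In bulk organoids, fewer cells of a type and less RNA per cell cannot be told apart.

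**Figure D1:**
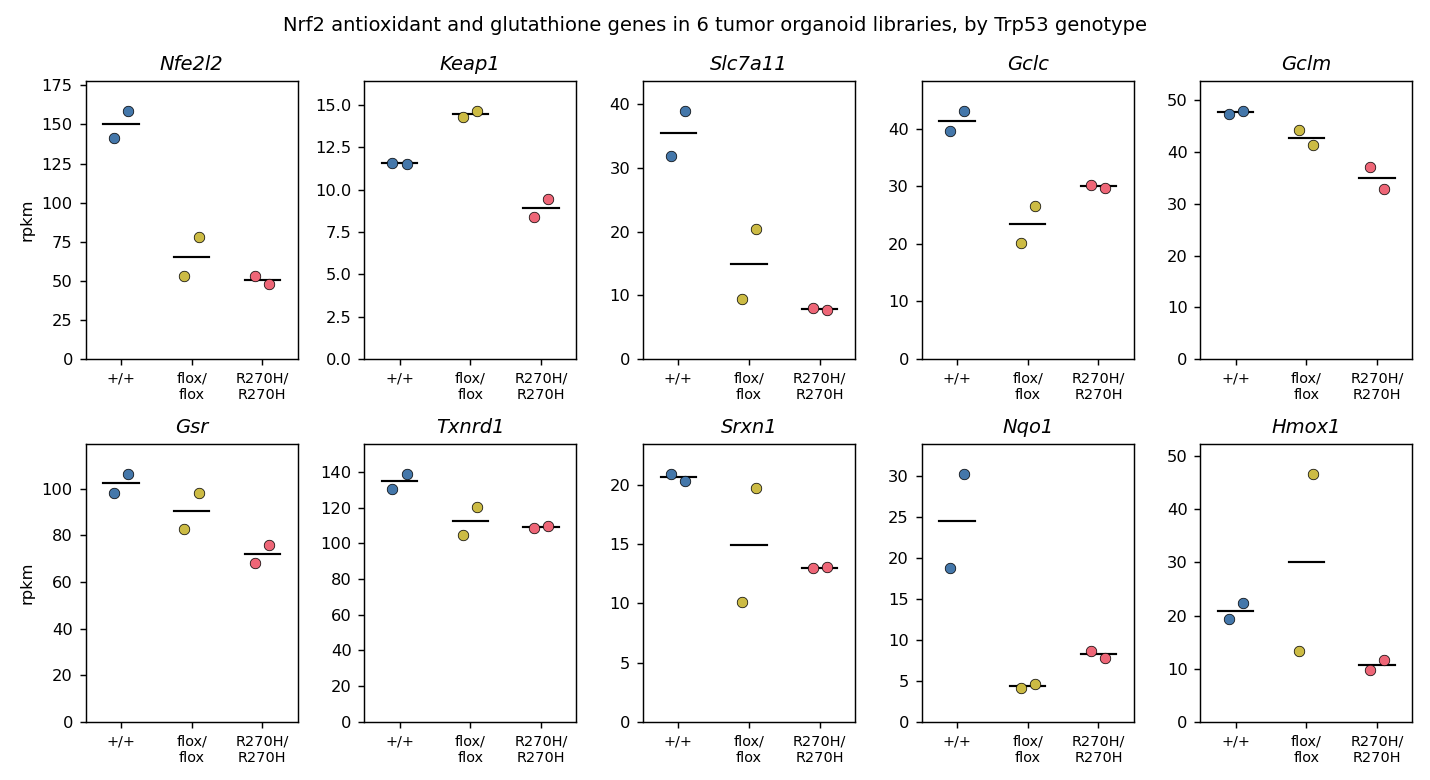
Level of each of the 10 genes in rpkm (vertical axes, linear, starting at 0) in the 2 libraries of each Trp53 genotype (points), with the genotype mean as a line. Both R270H/R270H points lie below both +/+ points in all 10 panels, and the flox/flox points spread widely for Hmox1, Srxn1 and Slc7a11.

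Of the regulators, Nfe2l2 (chr2:75675513-75704641, GRCm38, minus strand) had the highest level of the 10 genes in Trp53+/+ organoids. It was 142 and 159 rpkm there, 52.9 and 77.9 rpkm in Trp53flox/flox and 53.3 and 47.8 rpkm in Trp53R270H/R270H organoids. Both groups without wild-type p53 lay below both Trp53+/+ libraries, and they overlapped each other. On the log2(rpkm+1) scale, the difference from Trp53+/+ was -1.55 (SE 0.20, limma adjusted p = 0.0148) for Trp53R270H/R270H and -1.21 (SE 0.20, limma adjusted p = 0.0298) for Trp53flox/flox. Between the latter genotypes it was -0.34, with a 95% interval of -0.86 to 0.18, a range that includes no difference and a fall of 0.86.

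Keap1 (chr9:21229730-21239361, minus strand), the substrate adaptor that hands Nrf2 to the ubiquitin ligase Cul3, showed another order of the genotypes. Its level was 11.6 and 11.5 rpkm in Trp53+/+, 14.3 and 14.6 rpkm in Trp53flox/flox, and 8.39 and 9.44 rpkm in Trp53R270H/R270H organoids, so the 3 genotypes did not overlap. The Trp53flox/flox libraries were highest and the Trp53R270H/R270H libraries lowest. Of the 10 genes, Keap1 was the only one that limma called between the latter genotypes, at -0.64 (SE 0.11, adjusted p = 0.0173) for Trp53R270H/R270H minus Trp53flox/flox, and neither group passed the threshold against Trp53+/+ (adjusted p = 0.0967 and 0.116). The antisense gene Gm16754 overlaps exons of Keap1, and Gm17494 overlaps exons of Gclm. The libraries were stranded, but whether counting used strand is not given in the sources used here, so a share of reads from these partners cannot be told apart.

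Slc7a11 (chr3:49892526-50443614, minus strand), the light chain of the cystine and glutamate exchanger, changed most of the 10 genes between mutant and wild-type organoids. It was 31.9 and 39.0 rpkm in Trp53+/+, 9.51 and 20.4 rpkm in Trp53flox/flox and 8.05 and 7.63 rpkm in Trp53R270H/R270H organoids. The groups did not overlap, and the Trp53flox/flox libraries stood between the others with a 2.15-fold gap between them. The log2 difference from Trp53+/+ was -2.04 (SE 0.34, limma adjusted p = 0.0259) for Trp53R270H/R270H, while the -1.27 (SE 0.34) for Trp53flox/flox missed the threshold (limma adjusted p = 0.0728). Its promoter stretch above carries the pair of Atf4 elements.

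The 3 genes tested whose levels over the 6 libraries were most like Slc7a11 were Pparg (Pearson r = 0.998), Lif (r = 0.997) and Steap1 (r = 0.993), on log2(rpkm+1). Pparg, a nuclear receptor of lipid metabolism, was 18.8 and 21.5, 10.4 and 15.1, and 8.98 and 9.05 rpkm in Trp53+/+, Trp53flox/flox and Trp53R270H/R270H organoids. Steap1, a metalloreductase family member, was 20.7 and 21.4, 8.81 and 13.8, and 6.73 and 6.65 rpkm. Lif, a cytokine, was at the floor in both Trp53R270H/R270H libraries. With 6 libraries that share 3 genotypes, such likeness describes the libraries only.

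Gclc and Gclm encode the catalytic and the modifier subunit of glutamate cysteine ligase, the rate-limiting enzyme of glutathione synthesis, and the order of the genotypes differed between them. Gclc (chr9:77754535-77794485, plus strand) was 39.5 and 43.1 rpkm in Trp53+/+, 20.1 and 26.6 rpkm in Trp53flox/flox and 30.2 and 29.7 rpkm in Trp53R270H/R270H organoids. Its lowest libraries were those without p53, and limma called it lower there than in Trp53+/+ (-0.81, SE 0.15, adjusted p = 0.0361). For Trp53R270H/R270H minus Trp53+/+ it was -0.45 (adjusted p = 0.119). Gclm (chr3:122245557-122270732, plus strand) was 47.3 and 48.0, 44.2 and 41.4, and 37.1 and 32.9 rpkm in the same order. Here the Trp53R270H/R270H libraries were lowest, with a log2 difference from Trp53+/+ of -0.44 (SE 0.11, limma adjusted p = 0.0571) that missed the threshold.

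None of the 3 reductases passed the threshold in any comparison. Gsr (chr8:33652523-33698163, plus strand), which returns oxidised glutathione to its reduced form, was 98.1 and 107, 83.0 and 98.4, and 68.0 and 76.0 rpkm in Trp53+/+, Trp53flox/flox and Trp53R270H/R270H organoids. Txnrd1 (chr10:82833951-82897712, plus strand), cytosolic thioredoxin reductase, was 130 and 139, 105 and 120, and 108 and 110 rpkm. Srxn1 (chr2:152105516-152111376, plus strand), which repairs overoxidised peroxiredoxins, was 21.0 and 20.3, 10.1 and 19.8, and 13.0 and 13.1 rpkm. Both Trp53R270H/R270H libraries were below both Trp53+/+ libraries for each gene, with log2 differences of -0.50, -0.30 and -0.63 (limma adjusted p = 0.0675, 0.139 and 0.215). Without p53 the estimates were -0.18, -0.26 and -0.51, with 95% intervals of -0.51 to 0.16, -0.55 to 0.02 and -1.26 to 0.23.

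Nqo1 (chr8:107388225-107403206, minus strand) encodes a quinone reductase that is a classical readout of Nrf2 activity. It was 18.8 and 30.3 rpkm in Trp53+/+, 4.13 and 4.61 rpkm in Trp53flox/flox and 8.62 and 7.81 rpkm in Trp53R270H/R270H organoids, with no overlap between genotypes. The lowest level was thus in the organoids without p53, 5.61-fold below Trp53+/+ (log2 difference -2.21, SE 0.23, limma adjusted p = 0.0127). In Trp53R270H/R270H organoids the difference was -1.43 (SE 0.23, limma adjusted p = 0.0241). Set directly against each other, Trp53R270H/R270H was 1.88-fold higher than Trp53flox/flox, and this missed the threshold (log2 difference 0.78, 95% interval 0.19 to 1.37, limma adjusted p = 0.0643).

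Hmox1 (chr8:75093621-75100589, plus strand), heme oxygenase 1, was the least repeatable between libraries. It was 19.4 and 22.4 rpkm in Trp53+/+, 13.4 and 46.8 rpkm in Trp53flox/flox and 9.71 and 11.6 rpkm in Trp53R270H/R270H organoids. The Trp53flox/flox libraries, 3.49-fold apart, enclosed both Trp53+/+ libraries, and no comparison of Hmox1 passed the threshold (limma adjusted p = 0.318, 0.752 and 0.164). Its difference for Trp53flox/flox minus Trp53+/+ turned from 0.26 to -0.60 without the second Trp53flox/flox library. That library was above the first for 9 of the 10 genes, compared with 49% of all genes tested, with ratios of 1.95 for Srxn1, 1.47 for Nfe2l2 and 1.32 for Gclc, and the exception was Gclm (0.936).

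The second comparison set organoids with null Trp53 against wild-type. Of the 10 genes, 3 were called lower (Nqo1, Nfe2l2 and Gclc) and none higher, where 6.9% of all genes tested were called lower and 4.38% higher. Both Trp53flox/flox libraries were below both Trp53+/+ libraries for 7 of the 10 genes, as for 33.9% of all genes. The median log2 difference was -0.39, and -0.02 for all genes. This comparison and the first share the Trp53+/+ libraries. The third, mutant against null, called 1 gene lower (Keap1) and none higher, against 11% and 13.6% of all genes tested. Both Trp53R270H/R270H libraries were below both Trp53flox/flox libraries for 5 of the 10 genes, as for 31.2% of all genes, and Gclc and Nqo1 lay above instead.

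**Figure D2:**
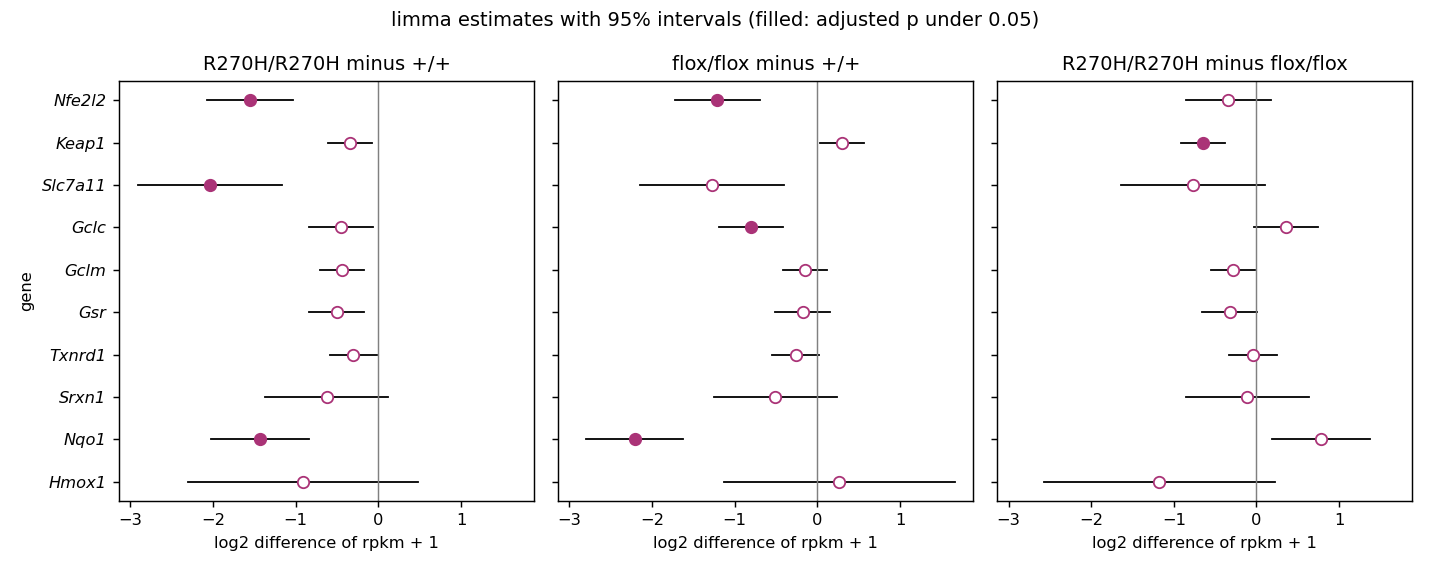
Difference in log2(rpkm+1) (horizontal axes) for each of the 10 genes in the 3 comparisons, with 95% intervals from the limma fit, where filled points passed an adjusted p of 0.05. Nfe2l2, Slc7a11 and Nqo1 are filled at -1.55, -2.04 and -1.43 on the left, Nqo1, Nfe2l2 and Gclc at -2.21, -1.21 and -0.81 in the middle, and Keap1 at -0.64 on the right.

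These counts depended on the spread that the test used. A fit of Trp53+/+ and Trp53R270H/R270H alone called all 10 genes lower, together with 2585 of the 10042 genes, whereas leaving out any 1 library of those genotypes from the fit of all 6 left none of the 10 called, with 3 to 5 at an unadjusted p under 0.05. For Trp53flox/flox against Trp53+/+, the fit of these genotypes alone called none of the 10 (4 at an unadjusted p under 0.05) and 47 of the 10042 genes. Leaving out a library either lost the calls on the 10 genes or added others in both directions, depending on the library. The number called over all genes likewise fell or rose. The Keap1 call between mutant and null was lost in the fit of these genotypes alone (limma adjusted p = 0.0865, in a range of 0.0149 to 0.119 over the settings with all libraries) and without any Trp53+/+ or Trp53R270H/R270H library. Over all named genes, members and pathway genes together, 18 of 22 calls between mutant and wild-type held in every setting with all 6 libraries or with the 2 genotypes compared, and Cdkn1a, Cat, Prdx5 and Pgls did not. Of 21 calls between null and wild-type, 3 held (Trp53, Cth and Ephx1), and of 22 between mutant and null, 5 held (Trp53, Chac1, Abcc2, Ddit4 and Slc7a5). The other calls on these named genes given below for those comparisons were lost in at least 1 such setting. The highest adjusted p over the settings stands beside them. Calls on cell type markers are from the fit of all 6 libraries only and were not followed over the settings. Leaving out a library is not among these settings. Without either Trp53+/+ library, the calls on pathway genes between mutant and wild-type were lost as well.

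Since rpkm is scaled to length, levels can be set side by side, as far as the gene lengths used upstream hold. In Trp53+/+ organoids the order of mean levels was Nfe2l2, Txnrd1, Gsr, Gclm, Gclc, Slc7a11, Nqo1, Hmox1, Srxn1 and Keap1, from 150 to 11.6 rpkm, and the libraries of neighbours overlapped only from Nqo1 to Hmox1 and from Hmox1 to Srxn1. In Trp53R270H/R270H organoids it was Txnrd1, Gsr, Nfe2l2, Gclm, Gclc, Srxn1, Hmox1, Keap1, Nqo1 and Slc7a11, from 109 to 7.84 rpkm. Slc7a11 thus went from rank 6 to rank 10, where its libraries overlapped those of Nqo1, which in turn overlapped those of Keap1, and Nfe2l2 from rank 1 to rank 3. In Trp53flox/flox organoids Txnrd1 was again highest (112 rpkm) and Nqo1 lowest (4.37 rpkm), and the libraries of each neighbouring pair from Gclm through Hmox1, Gclc, Slc7a11 and Srxn1 to Keap1 overlapped.

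The mean was highest in Trp53+/+ for 8 of the 10 genes and lowest in Trp53R270H/R270H for 8, compared with 26.9% and 32.6% of all genes tested. Across the 6 libraries, 24 of the 45 pairs among the 10 genes had a Pearson r over 0.7, with a median of 0.71, and 2 pairs were below 0. The pair Nfe2l2 and Slc7a11 had r = 0.98, and Nqo1 and Gclc r = 0.95. These libraries share genotypes, so the coefficients are descriptive.

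The wider pathway was read from lists of genes by role, chosen with earlier results of these data known. Each count of calls below is to be read beside the share over all genes tested. In mutant against wild-type, 6.36% were called lower and 5.86% higher. The shares were 6.9% and 4.38% in null against wild-type, and 11% and 13.6% in mutant against null. Nrf2 partners and turnover factors (small Maf proteins, Bach repressors, Cul3 and others) gave no call in any comparison by limma, among 9 of 12 listed genes that passed the filter, with 2, 3 and 3 at an unadjusted p under 0.05. Their median log2 difference was 0.24 for Trp53R270H/R270H and 0.07 for Trp53flox/flox, each minus Trp53+/+.

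Among 18 tested genes of glutathione supply and use, 5 fell and 1 rose in Trp53R270H/R270H compared with Trp53+/+ organoids. Slc3a2, the heavy chain that pairs with Slc7a11 at the membrane, was 72.5 and 81.3 rpkm in Trp53+/+, 64.6 and 67.1 rpkm in Trp53flox/flox, and 28.2 and 27.3 rpkm in Trp53R270H/R270H organoids, a 2.77-fold fall in the mutant (limma adjusted p = 0.00367). Chac1, which degrades glutathione and is an Atf4 target, was 22.3 and 22.6, 15.7 and 23.3, and 3.39 and 4.61 rpkm, 5.61-fold lower in the mutant than in Trp53+/+ organoids (limma adjusted p = 0.00679) and 4.87-fold lower than in Trp53flox/flox organoids (limma adjusted p = 0.00695). Both genes thus stood apart in the mutant, and limma called neither in the null. Cth, which makes cysteine by transsulfuration, had another pattern, at 123 and 140, 27.7 and 29.7, and 39.4 and 36.8 rpkm. It was 3.44-fold lower in mutant and 4.57-fold lower in null organoids (limma adjusted p = 0.00367 and 0.0028). The gene that rose, Gpx3, a secreted glutathione peroxidase, had no value above the floor in Trp53+/+ organoids and was 4.69 and 4.18 rpkm in the mutant, so at least 4.44-fold higher.

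In null organoids, 2 of these 18 genes fell and 2 rose, where 6.9% of all genes tested were called lower and 4.38% higher. Glrx, glutaredoxin, fell 2.10-fold, and the risers were Cbs, the other transsulfuration enzyme (2.48-fold), and the cytosolic glutathione peroxidase Gpx1 (2.12-fold), with limma adjusted p of up to 0.134, 0.154 and 0.112 over the settings. Between mutant and null organoids, 5 were lower and 2 higher in the mutant, against 11% and 13.6% of all genes tested. Gpx2, the glutathione peroxidase of gut epithelium, was 478 and 487 rpkm in Trp53+/+, 993 and 671 rpkm in Trp53flox/flox and 285 and 272 rpkm in Trp53R270H/R270H organoids, and was 2.99-fold lower in mutant than in null (limma adjusted p = 0.0109, up to 0.0586).

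**Figure D3:**
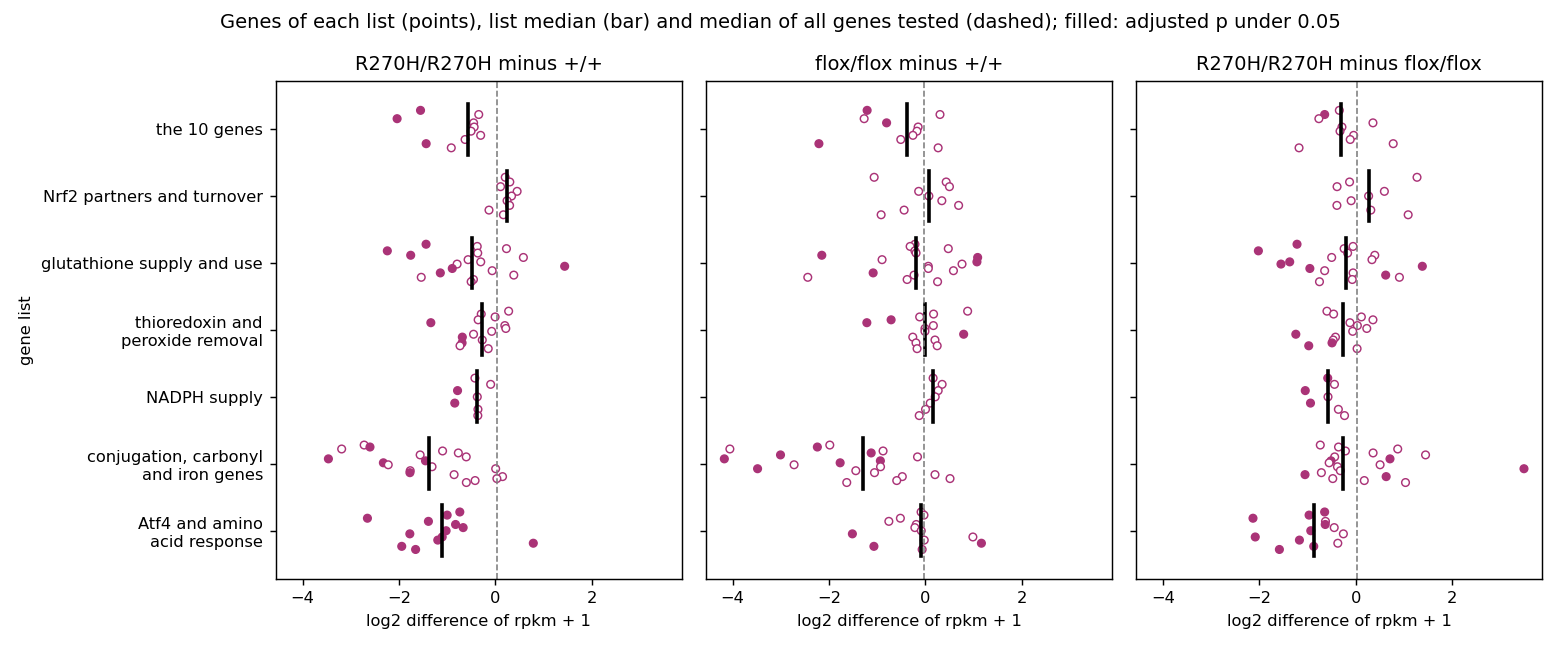
Difference in log2(rpkm+1) (horizontal axes) of every tested gene in each list (points, filled where the adjusted p was under 0.05) in the 3 comparisons, with the list median as a black bar and the median of all genes tested as a dashed line. The Atf4 and amino acid response genes have medians of -1.10, -0.09 and -0.87 from left to right, and the conjugation, carbonyl and iron genes -1.38, -1.29 and -0.27.

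Of 14 tested genes for thioredoxin, peroxiredoxin and peroxide removal, 3 fell in the mutant compared with Trp53+/+. These were Txnip, an inhibitor of thioredoxin (2.55-fold), catalase (Cat, 1.64-fold, limma adjusted p up to 0.0522) and the peroxiredoxin Prdx5 (1.61-fold, up to 0.085). In null organoids Txnip and Txnrd3 fell (2.29-fold and 1.76-fold) and Prdx4, a peroxiredoxin of the endoplasmic reticulum, rose 1.76-fold (limma adjusted p up to 0.118, 0.139 and 0.22). Prdx4, Cat and Sod1, the cytosolic superoxide dismutase, were lower in mutant than in null organoids, by 2.47-fold, 1.42-fold and 2.02-fold (limma adjusted p up to 0.0718, 0.249 and 0.152).

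All 7 genes of NADPH supply, which feeds glutathione and thioredoxin reductases, were tested. In the mutant, 2 fell against Trp53+/+ and none rose: Pgls and Tkt of the pentose phosphate pathway, 1.81-fold (limma adjusted p up to 0.0917) and 1.79-fold lower. In null organoids none was called by limma, with 1 at an unadjusted p under 0.05. Pgls, Tkt and G6pdx, the first enzyme of that pathway, were lower in mutant than in null organoids, by 2.21-fold, 1.92-fold and 1.5-fold (limma adjusted p up to 0.111, 0.0916 and 0.202). For all 7 genes both mutant libraries were below both Trp53+/+ libraries, as for 37.6% of all genes tested. The list median was -0.37 against Trp53+/+ and -0.57 against Trp53flox/flox, and that of all genes tested was 0.03 in each.

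The larger shifts were among 20 tested genes for conjugation, carbonyl reduction and iron storage that have been linked to Nrf2. In the mutant 5 fell and none rose, and in null organoids 7 fell and none rose. Ephx1, microsomal epoxide hydrolase, was 145 and 180 rpkm in Trp53+/+, 6.93 and 9.19 rpkm in Trp53flox/flox and 13.3 and 14.2 rpkm in Trp53R270H/R270H organoids, 20.1-fold lower in the null and 11.8-fold lower in the mutant (limma adjusted p = 0.00185 and 0.00354). Both groups were far below Trp53+/+, and the mutant was 1.70-fold above the null (limma adjusted p = 0.0402, up to 0.241). Gsta2, a glutathione transferase, and Cbr3, a carbonyl reductase, were at the floor in both mutant libraries, hence at least 11.4-fold and at least 9.03-fold lower than in Trp53+/+. Abcc4, an efflux pump, was 3.65-fold lower in the mutant, and the transferase Gstm3 was 7.97-fold lower in the null (limma adjusted p up to 0.12).

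The efflux pump Abcc2 separated the genotypes without wild-type p53. It was 32.7 and 35.3 rpkm in Trp53+/+, 2.89 and 1.51 rpkm in Trp53flox/flox and 37.1 and 31.5 rpkm in Trp53R270H/R270H organoids. The mutant was 15.6-fold above the null (limma adjusted p = 0.00245) and overlapped Trp53+/+. The ferritin chains moved in opposite directions between mutant and null: the light chain Ftl1 was 2.05-fold lower and the heavy chain Fth1 1.55-fold higher in the mutant (limma adjusted p up to 0.169 and 0.105). Paralogous transferases and ferritin copies can share reads, and how these were assigned is not given in the sources used here.

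Because Slc7a11, Slc3a2 and Chac1 are also Atf4 targets, a list of the Atf4 and amino acid response was read beside them, and all its 13 genes passed the filter. In Trp53R270H/R270H compared with Trp53+/+ organoids, 12 fell and 1 rose, against 6.36% and 5.86% of all genes tested. In Trp53flox/flox compared with Trp53+/+, 2 fell and 1 rose, against 6.9% and 4.38% of all genes. In mutant compared with null organoids 9 were lower and none higher, against 11% and 13.6%. The list medians were -1.10, -0.09 and -0.87, and those of all genes tested were 0.03, -0.02 and 0.03. Trib3, a pseudokinase induced by Atf4, was 24.6 and 24.2 rpkm in Trp53+/+, 12.4 and 22.5 rpkm in Trp53flox/flox and 2.68 and 3.44 rpkm in the mutant, where it was 7.98-fold below Trp53+/+ (limma adjusted p = 0.00814). Nupr1, a stress-induced chromatin protein, was 52.0 and 59.8, 40.1 and 70.2, and 16.2 and 17.9 rpkm. The mutant libraries were below the other 4 for both genes, and the null libraries of Nupr1 enclosed the wild-type values.

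Atf5 and Sesn2 fell in both comparisons with Trp53+/+. Atf5, a relative of Atf4, was 4.19-fold lower in the mutant and 2.16-fold lower in the null. Sesn2, a leucine sensor that is also a p53 target, was 4.83-fold lower and 3.57-fold lower. In the null both calls were lost in some settings (limma adjusted p up to 0.118 and 0.107). Atf3, which Atf4 and p53 can both induce, was the gene that rose in each comparison with Trp53+/+, from 6.81 and 5.57 rpkm to 13.0 and 17.3 rpkm in null organoids (limma adjusted p = 0.0238, up to 0.112) and to 11.5 and 11.3 rpkm in the mutant (1.84-fold, limma adjusted p = 0.0462). The Atf3 call in the mutant was not among those followed over the settings. Ddit4, an inhibitor of mTORC1, and Slc7a5, the leucine transporter that pairs with Slc3a2, were 4.50-fold and 2.30-fold lower in mutant than in null organoids.

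**Figure D4:**
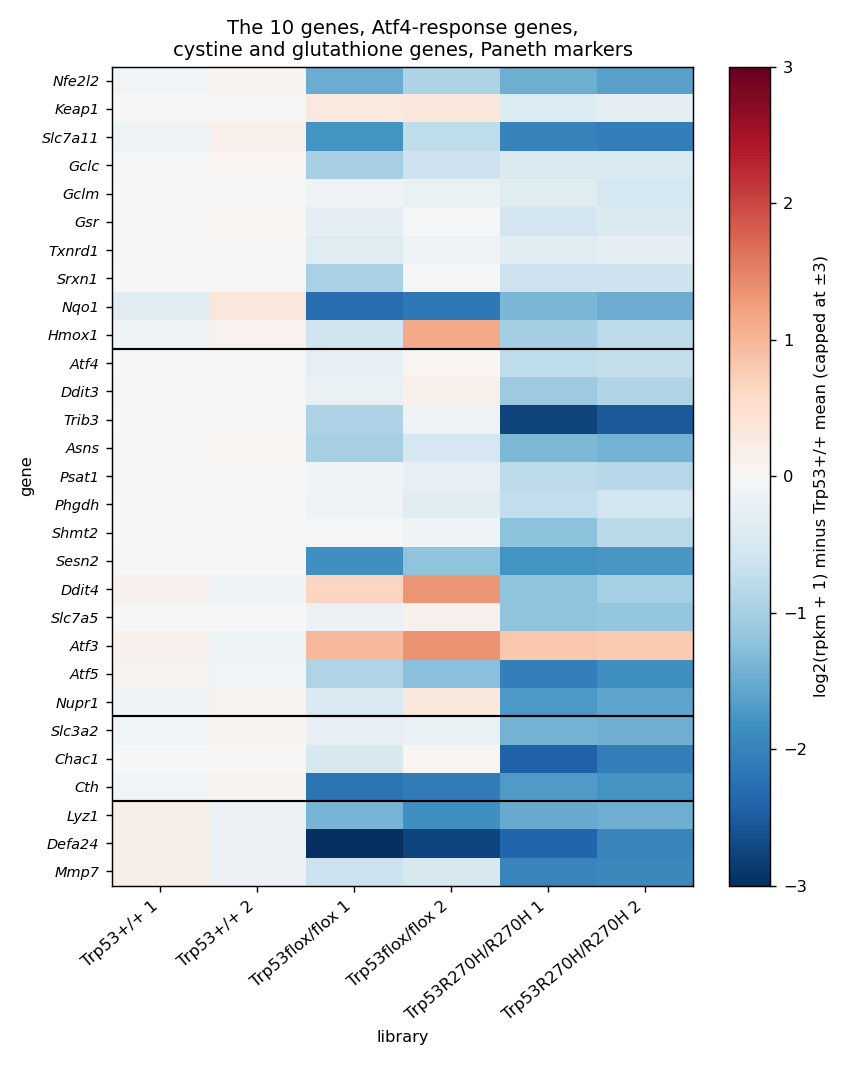
log2(rpkm+1) minus the Trp53+/+ mean (colour, red above and blue below, capped at 3) for the 10 genes, the Atf4 and amino acid response genes, Slc3a2, Chac1 and Cth, and 3 Paneth cell markers (rows), in the 6 libraries (columns). Trib3, Slc3a2 and Chac1 are darker in the R270H/R270H than in the flox/flox columns, at 7.98-fold, 2.77-fold and 5.61-fold below the +/+ mean. Nqo1, Cth, Lyz1 and Defa24 are dark in all 4 columns without wild-type p53, and Mmp7 is darker in the R270H/R270H columns.

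A list of p53-linked genes served as reference. In null organoids 4 of its 8 tested genes fell and 1 rose, and in the mutant 2 fell. The 4 include Trp53 itself, whose fall the blocked allele fixes. Cdkn1a was 5.98-fold lower in the null and 3.78-fold lower in the mutant, and Mdm2, the ubiquitin ligase of p53, 2.70-fold and 1.86-fold lower. Of these, Mdm2 in the mutant held in every such setting, and limma adjusted p reached 0.101 and 0.0505 for Cdkn1a in null and mutant and 0.0673 for Mdm2 in the null. Trp53inp1, a p53 target that regulates stress responses, was 46.5 and 51.6 rpkm in Trp53+/+, 3.34 and 8.17 rpkm in Trp53flox/flox and 17.0 and 15.4 rpkm in Trp53R270H/R270H organoids. It was 8.52-fold lower in the null (limma adjusted p = 0.0147, up to 0.0921) and 2.82-fold higher in mutant than in null organoids (limma adjusted p = 0.0398, up to 0.113), and the mutant, 3.02-fold below Trp53+/+, missed the threshold (limma adjusted p = 0.0511).

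Markers of intestinal cell types moved with some of these groups. The 3 Paneth markers together were 1442 and 1122 rpkm in Trp53+/+, 528 and 550 rpkm in Trp53flox/flox, and 331 and 364 rpkm in Trp53R270H/R270H organoids, thus lower in both genotypes in which Nfe2l2 and Nqo1 were lower. The further step from null to mutant lay in Mmp7 (log2 difference -1.40, limma adjusted p = 0.00769), which was not called in the null against Trp53+/+ (-0.56, limma adjusted p = 0.0821), whereas Lyz1 and Defa24 were 0.13 and 0.73 higher in mutant than in null organoids, without passing the threshold. Goblet cell markers were 145 and 118, 113 and 40.6, and 57.7 and 65.2 rpkm, enteroendocrine markers 12.1 and 8.41, 2 and 3.15, and 2 and 2 rpkm, and stem cell markers 39.4 and 28.9, 54.2 and 49.1, and 26.3 and 36.2 rpkm. Tff3 made up most of the goblet sum and was not called in any comparison (mutant minus null -0.34, limma adjusted p = 0.644). Fcgbp was lower than in Trp53+/+ in mutant and null (log2 difference -0.68 and -1.89, limma adjusted p = 0.0406 and 0.00615). It was higher in mutant than in null organoids (log2 difference 1.2, limma adjusted p = 0.0084). Of the enteroendocrine markers, Chgb was also lower than in Trp53+/+ in mutant and null (-2.32 and -1.99, limma adjusted p = 0.0122 and 0.0223). Members of the stem cell list went opposite ways. Of the stem cell markers, Olfm4 rose in the mutant against Trp53+/+ (2.49, limma adjusted p = 0.0199) and against the null (1.95, limma adjusted p = 0.0242), and Ascl2 was lower in mutant than in null organoids (-1.72, limma adjusted p = 0.00984). The enterocyte markers, 2 of 4 of which were above the floor, summed to 10.7 and 17.5, 4 and 4.20, and 19.7 and 10.7 rpkm. Alpi was lower in null than in Trp53+/+ organoids (-2.05, limma adjusted p = 0.0426). Alpi and Fabp1 were higher in mutant than in null organoids (1.86 and 1.80, limma adjusted p = 0.0351 and 0.0193). The part of these shifts in the levels of the 10 genes was not tested.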

How the data were processed

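RNA sequencing data of 6 tumor organoid libraries (3 Trp53 genotypes, 2 libraries each) were used. The authors prepared poly(A) libraries with a stranded Illumina kit, aligned reads to mm10 and used StrandNGS to obtain rpkm per gene, the unit of the deposited table. The version, gene annotation and read filters are not given in the sources used here. No value is below 1, so ratios against that floor are lower bounds. The table holds no counts, and the depth given is an estimate.

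Values were analysed as log2(rpkm+1) for the 10042 genes that reached 4 rpkm in any library, with limma 3.58.1 in R 4.3.3 (lmFit, contrasts, eBayes with trend), all 6 libraries without a block, two-sided, with Benjamini-Hochberg adjustment over all genes tested and a threshold of 0.05. Fold values are ratios of mean rpkm. An exact permutation test of 2 against 2 libraries cannot go below p = 0.333 and was not used. The script was tested on simulated data. Other tools were pandas 2.3.3, numpy 2.4.6, matplotlib 3.10.9 and scipy 1.17.1 in Python 3.11.15. Positions are from GENCODE M21 (GRCm38) and promoter windows from RefSeq.

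The 10 genes and the lists were chosen with earlier results of these data known. The text names all 10 genes, Trp53 and Cdkn1a, up to 4 called genes per list and comparison with the largest changes, and 3 genes most like Slc7a11. Markers are given as sums and counts. Beyond this rule, Nfe2l2 and Nqo1 were set beside the Paneth markers, and Cd68, Cdh5, Lyz1, Defa24, Mmp7, Tff3, Fcgbp, Chgb, Olfm4, Ascl2, Alpi and Fabp1 were named, after their values were seen. Alternatives changed the pseudocount (0.1 or none), filter, scaling, trend, weights, replicate block, genotypes fitted and libraries included.

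Titles of the samples give replicate numbers, which mark separate mice. Correlations of same-numbered deviations were 0.12, -0.29 and -0.20 between genotypes, thus of both signs. They show no common pairing by number and cannot settle whether libraries shared a batch.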

Additional observations from a re-analysis of the deposited data

Results flagged for a closer look

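For 9 of the genes named, the Trp53R270H/R270H and the Trp53flox/flox libraries lay on opposite sides of the Trp53+/+ libraries, and limma called the difference between those genotypes. How many of all genes tested show this order was not counted. None of the 9 was called by limma against Trp53+/+ in both genotypes, and Keap1, Gpx2, Ftl1 and Fth1 were called in neither. The log2 difference, Trp53R270H/R270H minus Trp53flox/flox, was -0.64 for Keap1 (limma adjusted p = 0.0173). Among the glutathione peroxidases it was -1.37 for Gpx1 (limma adjusted p = 0.0101) and -1.55 for Gpx2 (limma adjusted p = 0.0109), and it was -1.24 for the peroxiredoxin Prdx4 (limma adjusted p = 0.0067). The pentose phosphate enzymes Tkt and Pgls differed by -0.94 and -1.05 (limma adjusted p = 0.0142 and 0.0159). The ferritin chains went opposite ways, at -1.05 for Ftl1 and 0.63 for Fth1 (limma adjusted p = 0.023 and 0.0187). Ddit4 differed most, by -2.09 (limma adjusted p = 0.00864). Under the settings with all libraries or with only the genotypes compared, Ddit4 kept its call (adjusted p up to 0.0426), and the other 8 lost theirs in at least 1 setting, with adjusted p from limma of up to 0.119 for Keap1, 0.0554 for Gpx1, 0.0586 for Gpx2, 0.0718 for Prdx4, 0.0916 for Tkt, 0.111 for Pgls, 0.169 for Ftl1 and 0.105 for Fth1.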

How the results depend on the processing

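With 2 libraries per genotype, the number of calls rests on which libraries set the spread. Trp53R270H/R270H against Trp53+/+ gave 1227 genes and 3 of the 10, and 1907 genes without the filter, 5721 genes and 10 of the 10 in a fit of these 2 genotypes only, 5987 genes and 10 with a weight for each genotype, and 0 to 5732 genes and 0 to 10 with 1 library left out (1470 genes or more at an unadjusted p under 0.05). Trp53flox/flox against Trp53+/+ gave 1133 genes and 3 of the 10, 47 genes and 0 in a fit of these genotypes only, 150 genes and 0 with weights (4 of the 10 at an unadjusted p under 0.05 in each limma fit), and 8 to 6875 genes and 0 to 9 with 1 library left out. Trp53R270H/R270H against Trp53flox/flox gave 2469 genes and 1 of the 10, 378 genes and 0 in a fit of these genotypes only, 534 genes and 0 with weights (2 at an unadjusted p under 0.05), and 166 to 7259 genes and 0 to 6 with 1 library left out. A library left out leaves its genotype with 1, which is then assumed to vary like the others.

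A replicate block, added to the same fits, left 550, 280 and 1156 genes and 3, 1 and 1 of the 10 called, in the same order. With the numbers of the Trp53R270H/R270H libraries exchanged, an alternative chosen after seeing the data, the third called 2 of the 10.

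For the 90 log2 differences of named genes under 10 settings other than leaving out a library, 802 values kept their direction and call, 82 lost the call and 16 gained it, with no reversal. With 1 library left out, 4 of the 90 changed sign. These ranged from -0.045 to 0.14 for Trp53 (Trp53R270H/R270H minus Trp53+/+), from -0.60 to 1.13 for Hmox1 (Trp53flox/flox minus Trp53+/+), and from -0.14 to 0.055 for Txnrd1 and -0.56 to 0.34 for Srxn1 (Trp53R270H/R270H minus Trp53flox/flox). The cause was not tested. Levels under 1 rpkm are unknown.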
